A study of Mus musculus with 12 samples.

Results

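The RNA levels of 9 genes of adrenergic receptors and cAMP signalling were followed in interscapular brown adipose tissue (BAT) of mice lacking thioredoxin-interacting protein (Txnip) and of WT mice. The 9 genes were taken by name from the 25124 genes of the deposited expression table. They are the receptors Adrb1, Adrb3 and Adra1a, the G protein gene Gnas, the adenylyl cyclase gene Adcy3, the phosphodiesterase genes Pde3b and Pde4d, and the protein kinase A (PKA) genes Prkar2b and Prkaca. All 9 passed the filter on low values. RNA-seq was made from whole tissue of male mice aged 10 weeks in 4 groups of 3 libraries: WT and whole-body Txnip-/- mice kept for 1 week at 23 °C (room temperature, RT), and WT and Txnip-/- mice kept for 1 week at 30 °C (thermoneutrality, TN). The Txnip-/- line was on a C57B/6J background, and its deletion was not limited to BAT. The comparisons ask whether the parts of the norepinephrine signal in BAT differ in RNA level with the loss of Txnip and with 1 week of reduced cold stimulus.

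As background, sympathetic nerves release norepinephrine in BAT when an animal is cool. β-adrenergic receptors on the brown adipocyte then act through the stimulatory G protein Gs on adenylyl cyclase, which makes cAMP. cAMP frees the catalytic subunits of PKA from their regulatory subunits, and PKA drives lipolysis and the transcription of genes such as Ucp1, the uncoupling protein of heat production. Phosphodiesterases break cAMP down and end the signal, and α1-adrenergic receptors act through another G protein and calcium. At thermoneutrality this nerve signal is low.

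The labels held for the deleted gene. Txnip was 564, 581 and 694 TPM (transcript abundance per length, scaled to the same total in every library) in RT WT and 24.8, 26.9 and 35.4 TPM in RT Txnip-/- libraries, and 1238, 1083 and 1072 TPM in TN WT against 11, 14.4 and 10.5 TPM in TN Txnip-/- libraries. Read totals were between 29.93 and 47.44 M per library, and within a group the libraries correlated at r of at least 0.9854 over genes. The adipocyte markers (Adipoq, Plin1, Fabp4, Cidec and Lipe) summed to 15393 to 21179 TPM over the 12 libraries, and Ucp1 was between 154 and 4366 TPM over the 12 libraries. The sympathetic neuron markers Th, Dbh and Slc6a2 were at most 0.03, 0.07 and 0.074 TPM in any library. The cell bodies of these nerves lie outside the fat pad. The RNA was from whole tissue, so fewer cells of a type and less RNA per cell cannot be told apart.

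The following 3 libraries stood apart most in this pathway, by how often they held the highest value of their group. In RT WT replicate 1, 11 of 12 tested cAMP-responsive transcripts were the highest of the group. In RT Txnip-/- replicate 1, 10 of 12 were, and TN Txnip-/- replicate 3 came near with 8 of 12. Nr4a1, an immediate-early nuclear receptor gene, was 362, 11.7 and 5.32 TPM in the RT WT libraries and 77.2, 3.44 and 4.21 TPM in the RT Txnip-/- libraries. TN WT replicate 1 held the highest TPM of its group for 7 of the 9 genes, among them Gnas and Prkar2b, and the lowest for Adrb3. RT Txnip-/- replicate 2 came near, with the highest TPM of its group for 6 of the 9. Values that the 3 libraries named first moved most are also given without them.

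For 6 of the 9 genes RefSeq holds a promoter window (build GRCm38.p6, the build of the files) that starts at the counted transcript; no window was found for Adrb3, Adra1a and Pde3b. Each window runs from 250 bases before to 50 bases after the transcription start. The cAMP response element TGACGTCA, the site bound by CREB-family factors, was in 0 of the 6 windows and in 1.79% of all 32851 RefSeq promoter windows. Its core TGACG, which the full element also contains, was looked for on both strands and was in 3 of the 6 (Adrb1, Gnas and Prkaca) and in 20.8% of all windows. The 250 bases before the start are shown for the 3 genes that fell at TN in both genotypes and have a window. They are written 5′ to 3′ on the plus strand, which is the gene's strand for all 3, with TGACG, or its reverse complement CGTCA, in capitals.
Gnas, chr2:174327499-174327748: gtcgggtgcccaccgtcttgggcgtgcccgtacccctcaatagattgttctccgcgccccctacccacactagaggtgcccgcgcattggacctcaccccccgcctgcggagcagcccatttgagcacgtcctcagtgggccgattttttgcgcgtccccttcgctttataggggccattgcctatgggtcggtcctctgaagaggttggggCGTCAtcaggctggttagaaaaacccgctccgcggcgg
Adcy3, chr12:4133903-4134152: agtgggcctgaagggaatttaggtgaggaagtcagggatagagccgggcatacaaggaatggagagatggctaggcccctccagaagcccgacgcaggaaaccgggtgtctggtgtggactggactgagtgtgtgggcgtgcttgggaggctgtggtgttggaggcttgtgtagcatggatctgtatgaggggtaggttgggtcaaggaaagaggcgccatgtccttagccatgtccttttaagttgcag
Pde4d, chr13:108653927-108654176: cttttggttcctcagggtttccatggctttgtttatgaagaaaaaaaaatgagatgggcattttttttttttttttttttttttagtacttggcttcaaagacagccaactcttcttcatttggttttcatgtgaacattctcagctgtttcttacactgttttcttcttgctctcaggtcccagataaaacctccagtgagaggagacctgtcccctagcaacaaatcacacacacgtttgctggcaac
Gnas held 1 such core, read on the opposite strand and lying 38 bases before the transcription start, and the Adcy3 and Pde4d windows held none. The Gnas window lies at the start of the 1604-base noncoding transcript under which its TPM are listed. Whether it is the promoter of the Gs α transcript was not tested. A match is a match of letters and says nothing of binding.

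The RNA levels of the pathway differed widely between its steps. On the TPM scale, which is per transcript length, Gnas stood highest in RT WT at 3364 ± 381 TPM (SD, n = 3). Prkar2b followed at 746 ± 115 TPM and Prkaca at 225 ± 30.1 TPM, and the libraries of these genes did not overlap. Pde3b was at 129 ± 8.31 TPM, above Adrb3 at 99.9 ± 16.8 TPM and Adcy3 at 94.6 ± 4.37 TPM, and the last of these did not differ beyond their spread. Pde4d at 56 ± 10.7 TPM, Adra1a at 31.1 ± 0.682 TPM and Adrb1 at 20.4 ± 11.3 TPM stood lowest, and Adrb1 overlapped Adra1a through RT WT replicate 1 alone. The Gnas value is listed under a 1604-base noncoding transcript of the locus, and the level per length depends on that choice. Exons of Adrb3, Gnas and Adcy3 overlap those of a gene on the opposite strand (Gm45470, Gm20721 and Cenpo), and reads from such a pair cannot be told apart unless they were counted by strand.

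**Figure D1:**
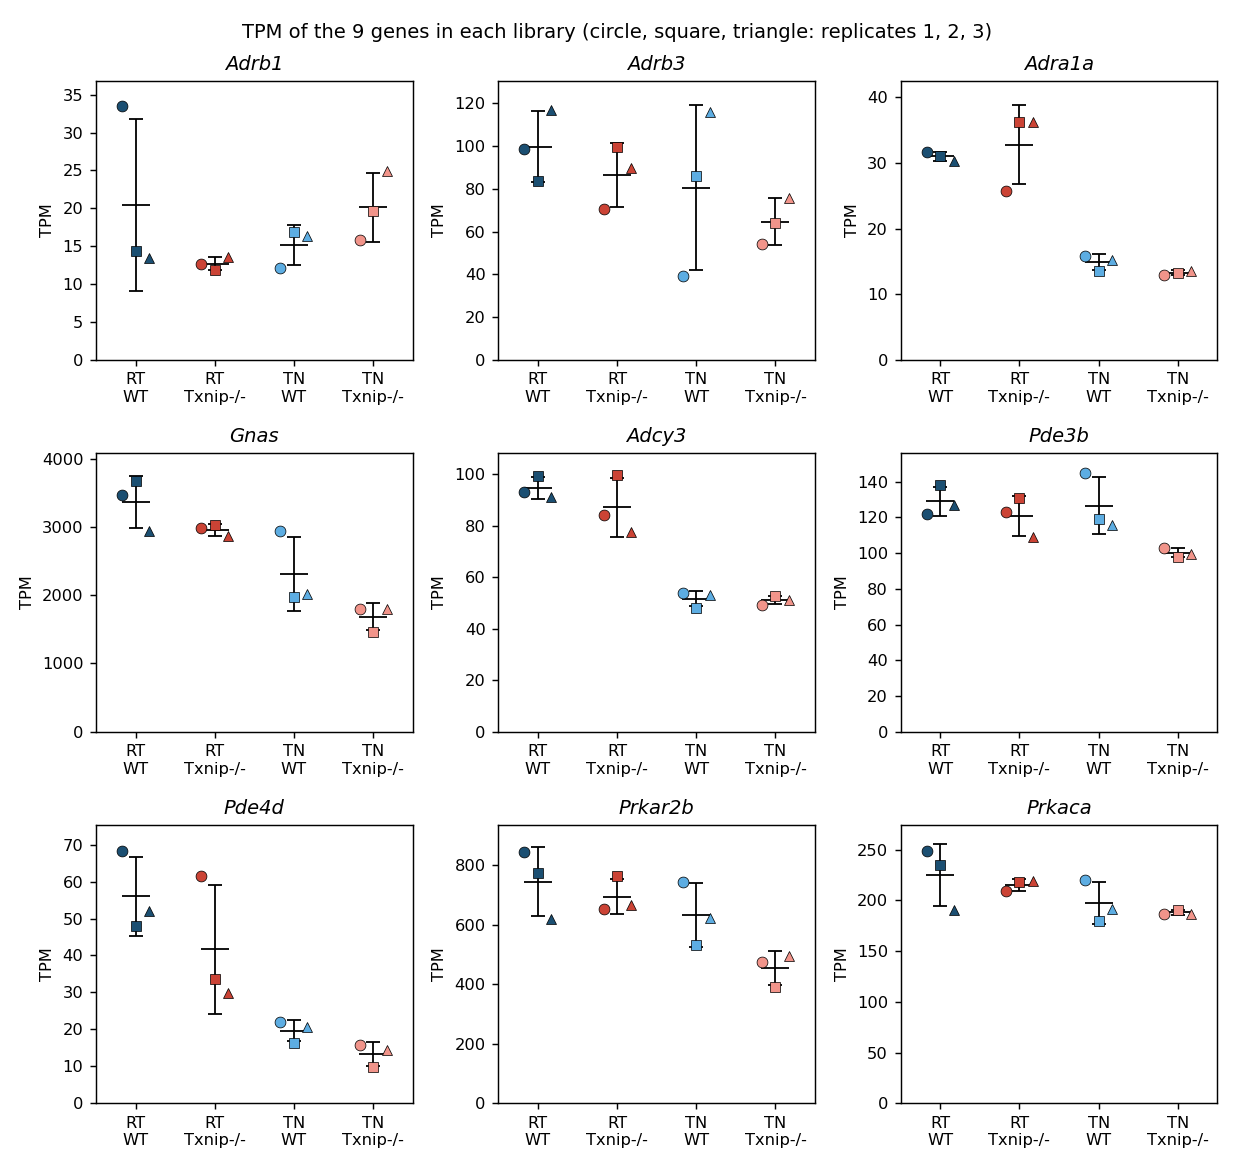
TPM of each of the 9 genes (y axis, starting at 0) in the 12 libraries, grouped on the x axis by temperature and genotype; circles, squares and triangles are replicates 1, 2 and 3, and bars give the mean ± SD of 3 libraries. Adra1a, Adcy3 and Pde4d lie lower in all 6 TN libraries than in all 6 RT libraries, and Adrb1 is set apart by 1 RT WT library at 33.5 TPM.

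Between the genotypes, none of the 9 genes passed the test at either temperature. The test was limma on log2(TPM + 1) over all genes with a mean of at least 1 TPM, and a gene passed at an adjusted p under 0.05 with a fold under 0.8 or above the inverse of 0.8. At RT, 0 of 9 passed, where 1.49% of the 11980 genes tested passed in either direction (0.76% higher and 0.726% lower in Txnip-/- mice), and 0 of the 9 had an unadjusted p under 0.05, beside 1921 of all 11980. At TN, 0 of 9 passed, where 8.66% of 12891 genes passed (6.49% higher and 2.17% lower), and 4 of the 9 (Gnas, Pde3b, Pde4d and Prkar2b) had an unadjusted p under 0.05, beside 3306 of all 12891. The authors' own log-scale values, tested in the same way, also gave 0 of 9 at both temperatures. The 9 genes had a median log2 difference of -0.12 at RT and -0.20 at TN, beside medians over all genes of 0.03 and 0.01.

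Adrb3 (chr8:27225776-27229588, minus strand), the β3 receptor typical of mouse adipocytes, was 98.5, 83.8 and 117 TPM in RT WT and 70.4, 99.4 and 89.5 TPM in RT Txnip-/- libraries. At TN it was 39.4, 85.9 and 116 TPM in WT and 54, 63.8 and 75.8 TPM in Txnip-/- libraries. The groups overlapped at both temperatures, and the TN WT libraries spread almost over the whole range of the gene. The log2 difference between genotypes was -0.21 ± 0.16 (SE) at RT (adjusted p = 0.574) and -0.20 ± 0.34 at TN (adjusted p = 0.777). The RT difference was -0.07 without RT Txnip-/- replicate 1 and -0.33 without RT WT replicate 2. Without TN WT replicate 1 the TN difference was -0.63 (adjusted p = 0.0784), and without TN WT replicate 3 it was 0.13.

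Adrb1 (chr19:56722117-56725150, plus strand), the β1 receptor, was 33.5, 14.4 and 13.4 TPM in RT WT and 12.6, 11.9 and 13.6 TPM in RT Txnip-/- libraries. The TN libraries held 12.1, 16.9 and 16.4 TPM in WT and 15.8, 19.7 and 24.9 TPM in Txnip-/- libraries. RT WT replicate 1 alone stood far from the rest, and it is the library with high Nr4a1; the part of that library's state in the Adrb1 value was not tested. The log2 difference at RT was -0.53 ± 0.31 (adjusted p = 0.462), and -0.12 without that library. At TN Adrb1 was the only 1 of the 9 with a higher mean in Txnip-/- mice, by 0.38 ± 0.17 (adjusted p = 0.219), and the groups overlapped. This difference was 0.24 without TN WT replicate 1 and 0.22 without TN Txnip-/- replicate 3.

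Adra1a (chr14:66635251-66733462, plus strand) encodes the α1A receptor. It was 31.7, 31.1 and 30.3 TPM in RT WT and 25.8, 36.3 and 36.2 TPM in RT Txnip-/- libraries. Its TN values were 15.9, 13.6 and 15.2 TPM in WT and 12.9, 13.3 and 13.6 TPM in Txnip-/- libraries, every Txnip-/- library below the lowest WT library, the closest pair by less than the rounding. The log2 difference was 0.06 ± 0.13 at RT (adjusted p = 0.871) and -0.16 ± 0.08 at TN (adjusted p = 0.248).

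Gnas (chr2:174327749-174346742, plus strand), which encodes the Gs α subunit, was 3478, 3675 and 2939 TPM in RT WT and 2986, 3035 and 2865 TPM in RT Txnip-/- libraries. At TN it was 2944, 1975 and 2025 TPM in WT and 1797, 1461 and 1805 TPM in Txnip-/- libraries. All TN Txnip-/- libraries lay below all TN WT libraries, as was the case for 13.4% of genes tested at TN. The log2 difference was -0.18 ± 0.09 at RT (adjusted p = 0.377) and -0.44 ± 0.17 at TN (adjusted p = 0.143). The RT difference was -0.27 without RT WT replicate 3 and -0.11 without RT WT replicate 2. Without TN WT replicate 1, the highest TN library, the TN difference was -0.25 (adjusted p = 0.239).

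Adcy3 (chr12:4134153-4213524, plus strand), an adenylyl cyclase gene, was 93.2, 99.5 and 91.2 TPM in RT WT and 84.2, 99.7 and 77.6 TPM in RT Txnip-/- libraries. Adcy3 at TN was 53.8, 48.2 and 53.2 TPM in WT and 49.4, 52.8 and 51.2 TPM in Txnip-/- libraries. The genotypes overlapped at both temperatures. The log2 difference at TN was -0.02, with a 95% confidence interval from -0.17 to 0.14, the narrowest interval of the 9 at that temperature.

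Pde3b (chr7:114415254-114537937, plus strand), the phosphodiesterase through which insulin lowers cAMP in adipocytes, was 122, 138 and 127 TPM in RT WT and 123, 131 and 109 TPM in RT Txnip-/- libraries. Pde3b at TN was 145, 119 and 116 TPM in WT and 103, 98.1 and 99.6 TPM in Txnip-/- libraries, with no overlap. The log2 difference at TN was -0.33 ± 0.09 (adjusted p = 0.0615), the smallest adjusted p of the 9, and at RT it was -0.09 ± 0.08 (adjusted p = 0.644). In 1 fit of all 12 libraries the TN difference passed (adjusted p = 0.0374), the only 1 of 14 alternatives in which it did. Without TN WT replicate 1, the highest TN library, it was -0.23 (adjusted p = 0.0889).

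Pde4d (chr13:108654177-109955969, plus strand) encodes a cAMP-specific phosphodiesterase of the PDE4 family. It was 68.2, 47.9 and 52 TPM in RT WT and 61.6, 33.6 and 29.8 TPM in RT Txnip-/- libraries, and both groups were highest in replicate 1, the libraries with high Nr4a1. At TN it was 22, 16.4 and 20.6 TPM in WT and 15.8, 9.77 and 14.5 TPM in Txnip-/- libraries, with no overlap. The log2 difference was -0.48 ± 0.26 at RT (adjusted p = 0.434) and -0.54 ± 0.18 at TN (adjusted p = 0.0996). Without TN Txnip-/- replicate 2 the TN difference was -0.34. The RT difference was -0.79 without RT Txnip-/- replicate 1, -0.28 without RT Txnip-/- replicate 3 and -0.64 without both RT libraries numbered 1 (adjusted p = 0.0712).

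Prkar2b (chr12:31958471-32061277, minus strand), the main PKA regulatory subunit of adipocytes, was 844, 774 and 619 TPM in RT WT and 655, 763 and 666 TPM in RT Txnip-/- libraries. Prkar2b at TN was 744, 532 and 624 TPM in WT and 477, 392 and 497 TPM in Txnip-/- libraries, with no overlap. The log2 difference was -0.09 ± 0.12 at RT (adjusted p = 0.755) and -0.47 ± 0.14 at TN (adjusted p = 0.0738). The TN difference passed when TN WT replicate 2 was left out (-0.59, adjusted p = 0.0483). It was smaller and did not pass without TN WT replicate 1 (-0.35, adjusted p = 0.154) or without TN Txnip-/- replicate 2 (-0.365, adjusted p = 0.206).

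Prkaca (chr8:83972978-83996442, plus strand), a PKA catalytic subunit, was 249, 235 and 191 TPM in RT WT and 209, 218 and 219 TPM in RT Txnip-/- libraries. Prkaca at TN was 220, 180 and 192 TPM in WT and 187, 191 and 187 TPM in Txnip-/- libraries. The genotypes overlapped at both temperatures. The log2 difference at TN was -0.06, with a 95% confidence interval from -0.25 to 0.13.

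Taken by count, 5 of the 9 genes (Adra1a, Gnas, Pde3b, Pde4d and Prkar2b) had all TN Txnip-/- libraries below all TN WT libraries, and 0 of 9 separated at RT. Over all genes tested, 31.1% were separated at TN (13.4% lower in Txnip-/- mice) and 22.6% at RT (7.58% lower). The macrophage markers (Adgre1, Cd68, Csf1r, Lyz2, Mrc1 and Cd14) passed as higher in 6 of 6 at TN, and their sum was 111 to 199 TPM in WT and 323 to 445 TPM in Txnip-/- libraries. The fibroblast and preadipocyte markers were higher in 5 of 5, with sums of 219 to 279 TPM and 407 to 414 TPM. The brown adipocyte markers (Ucp1, Cidea, Cox7a1, Elovl3 and Ppara) fell in 3 of 5, with sums of 4420 to 4688 TPM and 2649 to 3117 TPM. The adipocyte markers passed in 0 of 5, with sums of 15519 to 17003 TPM in WT and 15393 to 17193 TPM in Txnip-/- libraries. The part of these cell types in the differences of the 9 genes was not tested. At RT the skeletal muscle markers summed to 2.3 to 2.83 TPM in WT and 17.8 to 42.4 TPM in Txnip-/- libraries, and 5 of 5 passed as higher, while the macrophage markers passed as higher in 2 of 6, the brown adipocyte markers as lower in 2 of 5 (sums of 7950 to 8428 TPM in WT and 5954 to 7677 TPM in Txnip-/- libraries) and the smooth muscle and pericyte markers as lower in 1 of 5. Of the other marker lists at TN, white adipocyte markers were higher in 2 of 3, B cell markers in 1 of 2 and T cell markers in 1 of 3. Endothelial, smooth muscle, skeletal muscle, Schwann cell and erythroid markers passed in 0 of 5, 0 of 5, 0 of 2, 0 of 4 and 0 of 4 at TN.

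**Figure D2:**
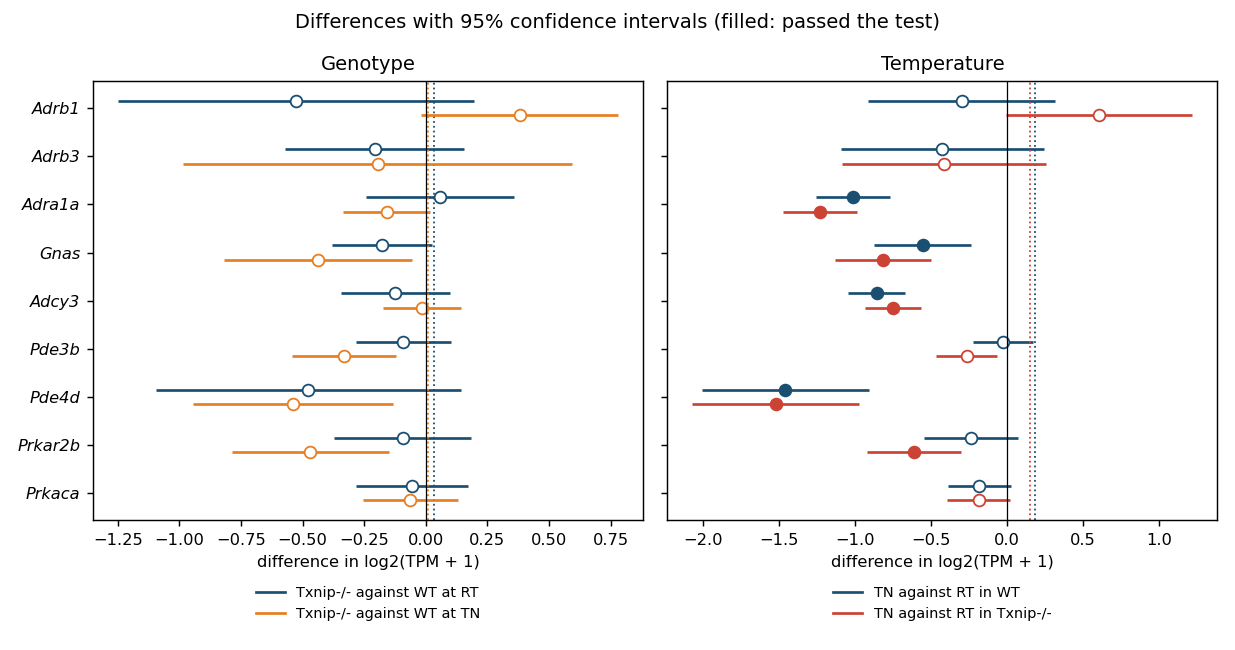
Differences in log2(TPM + 1) (x axis) for the 9 genes (y axis), between the genotypes at RT and TN (left) and between TN and RT in each genotype (right), with 95% confidence intervals; filled points passed the test and dotted lines mark the median of all genes. No point is filled on the left, and on the right Adra1a, Gnas, Adcy3 and Pde4d are filled in both genotypes and Prkar2b in Txnip-/- mice.

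From RT to TN, the G protein, cyclase and phosphodiesterase steps each had a gene that fell in both genotypes. Of the receptors, the α1 receptor gene Adra1a fell in both genotypes, and the β receptor genes Adrb1 and Adrb3 did not pass in either. In WT mice 4 of 9 genes fell (Adra1a, Gnas, Adcy3 and Pde4d) and 0 rose, where 6.39% of the 12486 genes tested fell and 31.4% rose. In Txnip-/- mice 5 of 9 fell (the same 4 and Prkar2b) and 0 rose, where 8.27% fell and 30.9% rose. The 2 comparisons share 1 estimate of the spread but no libraries. Each shares its libraries with the genotype comparisons. Groups did not overlap for 3 of 9 genes in WT, all lower at TN, where 57.5% of all genes did not overlap and 12% were lower. In Txnip-/- mice they did not overlap for 8 of 9, 7 lower and Adrb1 higher at TN, where 61.1% of all genes did not overlap, 16.9% lower and 44.1% higher. The sources used here do not say whether RT and TN libraries were made together, so such a batch and temperature cannot be told apart. The macrophage, fibroblast and endothelial markers rose in WT in 5 of 6, 5 of 5 and 4 of 5, and the adipocyte and brown adipocyte markers fell in 2 of 5 and 3 of 5. In Txnip-/- mice the macrophage, fibroblast and endothelial markers rose in 6 of 6, 5 of 5 and 5 of 5, and the adipocyte, brown adipocyte and skeletal muscle markers fell in 2 of 5, 4 of 5 and 5 of 5. The brown adipocyte markers summed to 7950 to 8428 TPM at RT and 4420 to 4688 TPM at TN in WT, and to 5954 to 7677 TPM and 2649 to 3117 TPM in Txnip-/- libraries. The white adipocyte markers rose in 2 of 3 in both genotypes, with sums of 18.3 to 48.5 TPM at RT and 91.1 to 114 TPM at TN in WT. B cell markers rose in 1 of 2 in WT and 2 of 2 in Txnip-/- mice, T cell markers in 1 of 1 in both, and Schwann cell markers in 0 of 4 and 2 of 4. Of the 5 smooth muscle and pericyte markers 1 rose in both genotypes and 1 fell in WT. The part of these cell types in the falls was not tested.

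All genes together were shifted upward at TN by a median of 0.18 in WT and 0.15 in Txnip-/- mice on the log2 scale. After centring each library on its median, these shifts were 0.00 and -0.04, and the share of passing genes that rose went from 83.1% to 51.1% in WT and from 78.9% to 48.5% in Txnip-/- mice. Of the 12486 genes tested, 1841 passed as lower in WT and 2435 in Txnip-/- mice after this centring. On the deposited scale these counts were 798 and 1033. The 4 genes that fell in both genotypes passed as lower under both other scalings too. Relative to the median of all genes, the fall in WT was 1.20 for Adra1a, 1.04 for Adcy3, 1.64 for Pde4d and 0.74 for Gnas on the log2 scale. With median centring, Prkar2b and Prkaca also passed as lower in WT and Pde3b and Prkaca in Txnip-/- mice.

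Pde4d changed most of the 9. It fell by 1.46 ± 0.25 in WT (adjusted p = 0.000867) and by 1.52 ± 0.25 in Txnip-/- mice (adjusted p = 0.000472) on the log2 scale, a TN level of 0.36 and 0.35 times that at RT. The highest TN library, at 22 TPM, lay below the lowest RT library, at 29.8 TPM. Without both RT libraries numbered 1 the difference was -1.31 in WT and -1.21 in Txnip-/- mice, and the same 4 genes passed in WT.

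Adra1a fell by 1.01 ± 0.11 in WT (adjusted p = 9.86e-05) and by 1.23 ± 0.11 in Txnip-/- mice (adjusted p = 1.53e-05). Adcy3 fell by 0.86 ± 0.09 in WT (adjusted p = 5.86e-05) and by 0.75 ± 0.09 in Txnip-/- mice (adjusted p = 4.65e-05). Both genes kept tight groups at TN, with values of 12.9 to 15.9 TPM for Adra1a and 48.2 to 53.8 TPM for Adcy3 in all 6 TN libraries. The RT Txnip-/- libraries spread more, from 25.8 to 36.3 TPM for Adra1a and from 77.6 to 99.7 TPM for Adcy3.

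Gnas fell by 0.56 ± 0.15 in WT (adjusted p = 0.00815) and by 0.82 ± 0.15 in Txnip-/- mice (adjusted p = 0.000752). In WT the groups overlapped, since TN WT replicate 1 at 2944 TPM lay just above RT WT replicate 3 at 2939 TPM. Without TN WT replicate 1 the fall was 0.74 (adjusted p = 0.000661). Prkar2b fell by 0.61 ± 0.14 in Txnip-/- mice (adjusted p = 0.00391), while in WT its difference was -0.24 ± 0.14 (adjusted p = 0.183), between -0.12 without TN WT replicate 2 and -0.36 without RT WT replicate 3. The difference between these falls was -0.38 with a 95% confidence interval from -0.81 to 0.06 (adjusted p = 0.459), so they were not shown to differ.

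Adrb1 and Adrb3 did not pass in either genotype. Adrb3 differed by -0.43 ± 0.31 in WT (adjusted p = 0.262) and by -0.42 ± 0.31 in Txnip-/- mice (adjusted p = 0.275), and the WT difference was 0.01 without TN WT replicate 1 and -0.75 without TN WT replicate 3, where it passed (adjusted p = 0.0494). Adrb1 differed by -0.30 ± 0.28 in WT (adjusted p = 0.388) and by 0.61 ± 0.28 in Txnip-/- mice (adjusted p = 0.0898). In Txnip-/- mice all 3 TN libraries (15.8 to 24.9 TPM) lay above all 3 RT libraries (11.9 to 13.6 TPM). This difference passed when only the 6 Txnip-/- libraries were fitted (adjusted p = 0.0113) and when RT WT replicate 1 was left out (adjusted p = 0.00733). Without RT WT replicate 1 the WT difference was 0.10.

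Pde3b and Prkaca differed little with temperature. Pde3b differed by -0.03 ± 0.09 in WT (adjusted p = 0.81) and by -0.27 ± 0.09 in Txnip-/- mice (adjusted p = 0.0279), which missed the fold threshold at 0.83 times the RT level. It passed in Txnip-/- mice with upper-quartile scaling and without RT Txnip-/- replicate 3 (-0.34, adjusted p = 0.0146). Prkaca differed by -0.18 ± 0.09 in WT (adjusted p = 0.125) and by -0.19 ± 0.09 in Txnip-/- mice (adjusted p = 0.114).

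The interaction of genotype and temperature passed for 0 of 9 genes, where 1 of 12486 genes passed (0.00801%), Txnip itself, and 1571 had an unadjusted p under 0.05. Of the 9 genes 1, Adrb1, had an unadjusted p under 0.05. Its log2 interaction was 0.91 ± 0.40 with a 95% confidence interval from 0.04 to 1.77 (adjusted p = 0.373), and without RT WT replicate 1 it was 0.50 (adjusted p = 0.399). The interval for Adrb3 ran from -0.94 to 0.96 and that for Pde4d from -0.84 to 0.71. For Adcy3 and Prkaca the intervals were narrower, from -0.15 to 0.37 and from -0.30 to 0.29.

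The make-up of each gene family is a ratio within a library and does not depend on how libraries were scaled. Adra1a took 62.1% to 63.5% of the summed TPM of the α1 receptors in RT WT and 39.1% to 45.2% in TN WT libraries, and 57.6% to 74.2% and 39.6% to 41.9% in Txnip-/- libraries. Adcy3 took 42.6% to 44.9% of the summed TPM of the adenylyl cyclases in RT WT and 28.8% to 34.8% in TN WT libraries, and 41% to 46.7% and 34.3% to 35.4% in Txnip-/- libraries. Adcy6 was the other abundant cyclase, at 39.4% to 44.1% in RT WT and 45.2% to 51.7% in TN WT libraries, and at 40.2% to 44% and 38.3% to 42.3% in Txnip-/- libraries. Pde4d took 55.6% to 61.3% of the Pde4a to Pde4d sum in RT WT and 35.1% to 41.7% in TN WT, and 44.9% to 63% and 26.7% to 34.2% in Txnip-/- libraries.

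Pde3b stayed the largest of the 16 cAMP phosphodiesterase genes, at 35.2% to 46.1% of their sum over the 12 libraries. Prkar2b took 81.3% to 86.5% of the PKA regulatory subunits in the RT WT, RT Txnip-/- and TN WT libraries and 73.9% to 79.1% in the TN Txnip-/- libraries. The ratio of regulatory to catalytic subunit TPM was 3.41 ± 0.0562 in WT and 3.36 ± 0.254 in Txnip-/- libraries at RT. At TN the ratio was 3.21 ± 0.183 in WT and 2.64 ± 0.26 in Txnip-/- libraries, and no library of this last group overlapped another group. These shares were given as values and not tested.

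**Figure D3:**
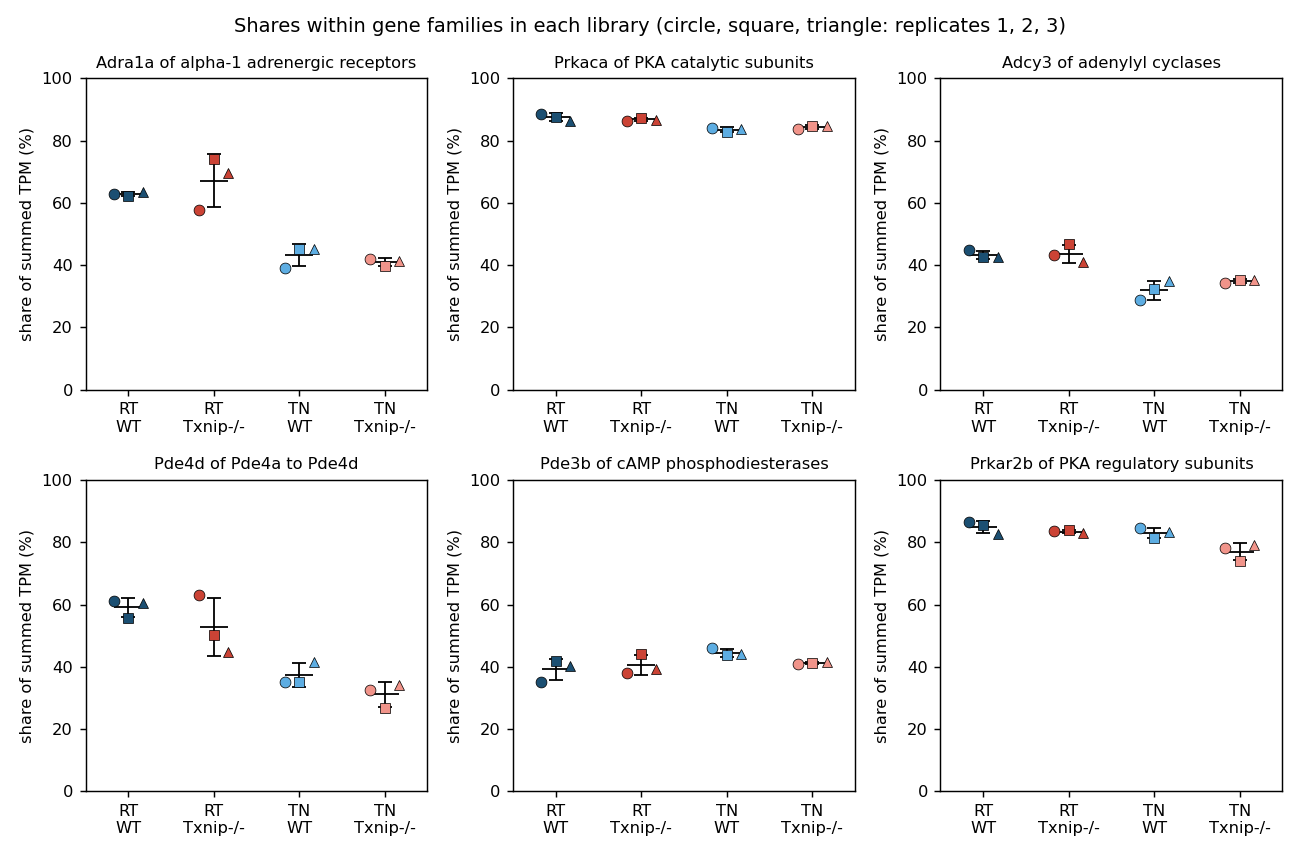
Share of the summed TPM of a gene family (y axis, %, from 0 to 100) taken by 1 gene in each of the 12 libraries, by group on the x axis; circles, squares and triangles are replicates 1, 2 and 3, and bars give the mean ± SD of 3 libraries. The Adra1a share is 57.6% to 74.2% in the 6 RT libraries and 39.1% to 45.2% in the 6 TN libraries, and the Prkar2b share is lowest in the TN Txnip-/- libraries.

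The rest of the pathway was described with 15 gene lists, from receptors to PKA substrates, which held 132 genes besides the 9. Between genotypes at RT, 0 of 101 tested genes passed with limma, and 17 had an unadjusted p under 0.05, beside 1921 of all 11980 genes. At TN 14 of 105 rose and 4 fell in Txnip-/- mice, 17.1% together beside 8.66% of all genes (6.49% higher and 2.17% lower), with a list median of 0.04. With the sum of the macrophage markers standing at 111 to 199 TPM in WT and 323 to 445 TPM in Txnip-/- libraries, their part in these counts was not tested. Of the 18 genes, 8 held under every alternative tried (Pth1r, Hcar1, Hcar2, Gnai1, Arrb1, Arrb2, Adcy7 and Ucp1).

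Among other Gs-coupled receptors 3 of 9 rose in Txnip-/- mice at TN. Pth1r, the receptor of parathyroid hormone, was 11.8, 17.4 and 13.5 TPM in TN WT and 42.3, 41.7 and 37.7 TPM in TN Txnip-/- libraries (log2 difference 1.46 ± 0.13, adjusted p = 0.00241). Sctr, the secretin receptor, rose by 0.74 ± 0.14 (adjusted p = 0.0192) and Mc2r, the corticotropin receptor, by 0.54 ± 0.12 (adjusted p = 0.0347). Of 5 tested Gi-coupled receptors, which lower cAMP, 2 rose. They were Hcar1, the lactate receptor, at 13.3, 13.1 and 10.4 TPM in WT and 28.1, 45.5 and 28.8 TPM in Txnip-/- libraries (1.38 ± 0.18, adjusted p = 0.00669), and Hcar2, a receptor of ketone bodies and niacin (0.90 ± 0.11, adjusted p = 0.00542).

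Downstream of the receptors, 2 of 16 tested G protein subunits passed at TN: Gnai1, an inhibitory α subunit, rose by 0.59 ± 0.10 (adjusted p = 0.0132) and Gnao1 fell by 0.41 ± 0.08 (adjusted p = 0.0191). Of 9 tested genes of receptor desensitisation, both arrestin genes rose, Arrb1 by 0.62 ± 0.11 (adjusted p = 0.0138) and Arrb2 by 0.70 ± 0.12 (adjusted p = 0.0132). Of 6 tested adenylyl cyclases, Adcy7 rose by 0.83 ± 0.12 (adjusted p = 0.0082) and Adcy5 by 1.13 ± 0.23 (adjusted p = 0.0249). Also called were Pde7b, a phosphodiesterase (-0.52), and Pkig, a PKA inhibitor (0.46).

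The PKA subunits (6 tested), A-kinase anchoring proteins (10), CREB family and coactivators (9), lipolysis genes (6) and adrenergic receptors (6) held 0 genes that passed between genotypes at TN. Of 12 tested cAMP-responsive transcripts 2 rose and 2 fell in Txnip-/- mice at TN. Ucp1 was 1136, 621 and 686 TPM in WT and 255, 154 and 339 TPM in Txnip-/- libraries (-1.72 ± 0.31, adjusted p = 0.0151), and Dio2, which activates thyroid hormone, differed by -0.98 ± 0.24 (adjusted p = 0.0445). Gadd45g (0.90, adjusted p = 0.0165) and Fos (0.44, adjusted p = 0.0488) rose. Fos lost its call in 12 of 14 alternatives, Pkig in 10, and Dio2 and Mc2r in 8 each.

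From RT to TN in WT, 25 of 104 list genes rose and 16 fell, 39.4% together, beside 37.8% of all genes tested. The split depended on the scaling: it was 16 rising and 25 falling with upper-quartile scaling, and 12 and 26 with median centring. In Txnip-/- mice 30 rose and 18 fell, 46.2% beside 39.2% of all genes, with 25 and 20, and 21 and 23, under those scalings. The cAMP-responsive transcripts had the lowest list median in WT, -0.95, with 7 of 13 lower and 2 higher. Dio2 fell the most, from 86.8, 66.9 and 43.8 TPM at RT to 2.71, 2.35 and 3.81 TPM at TN in WT libraries (-4.04 ± 0.36, adjusted p = 4.15e-05), and Fos rose (0.71 ± 0.20, adjusted p = 0.0119). Without RT WT replicate 1 the list median in WT was -0.63, with 6 lower and 3 higher, and Dio2 differed by -3.82 (adjusted p = 0.000136).

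The lipolysis genes, which encode PKA substrates and their partners, followed with a median of -0.48, and 3 of 6 fell in WT. The largest fall was that of G0s2, an inhibitor of triglyceride lipase, from 536, 835 and 938 TPM to 165, 261 and 217 TPM (-1.82 ± 0.47, adjusted p = 0.00748). Of the PKA subunits, Epac genes and catecholamine uptake and breakdown genes 0 of 6, 0 of 1 and 0 of 4 passed.

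Within the other lists, the passing gene with the largest rise in WT was Mc2r (0.95) and that with the largest fall Mc5r (-0.48) among Gs-coupled receptors. Hcar1 fell by 1.03 and Adora1, the adenosine A1 receptor, rose by 0.45 among Gi-coupled receptors. Gng2, a G protein γ subunit, rose by 0.99. Rgs2, which shortens G protein signals, rose by 1.49 and its relative Rgs4 fell by 0.76. Adcy7 rose by 0.71, the PKA inhibitor gene Pkia by 0.55 and the anchoring protein gene Akap7 by 0.62, while Akap13 fell by 0.38. Pde10a (0.37) and Creb1 (0.40) passed on the deposited scale, and they and Adora1 no longer passed with either other scaling.

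**Figure D4:**
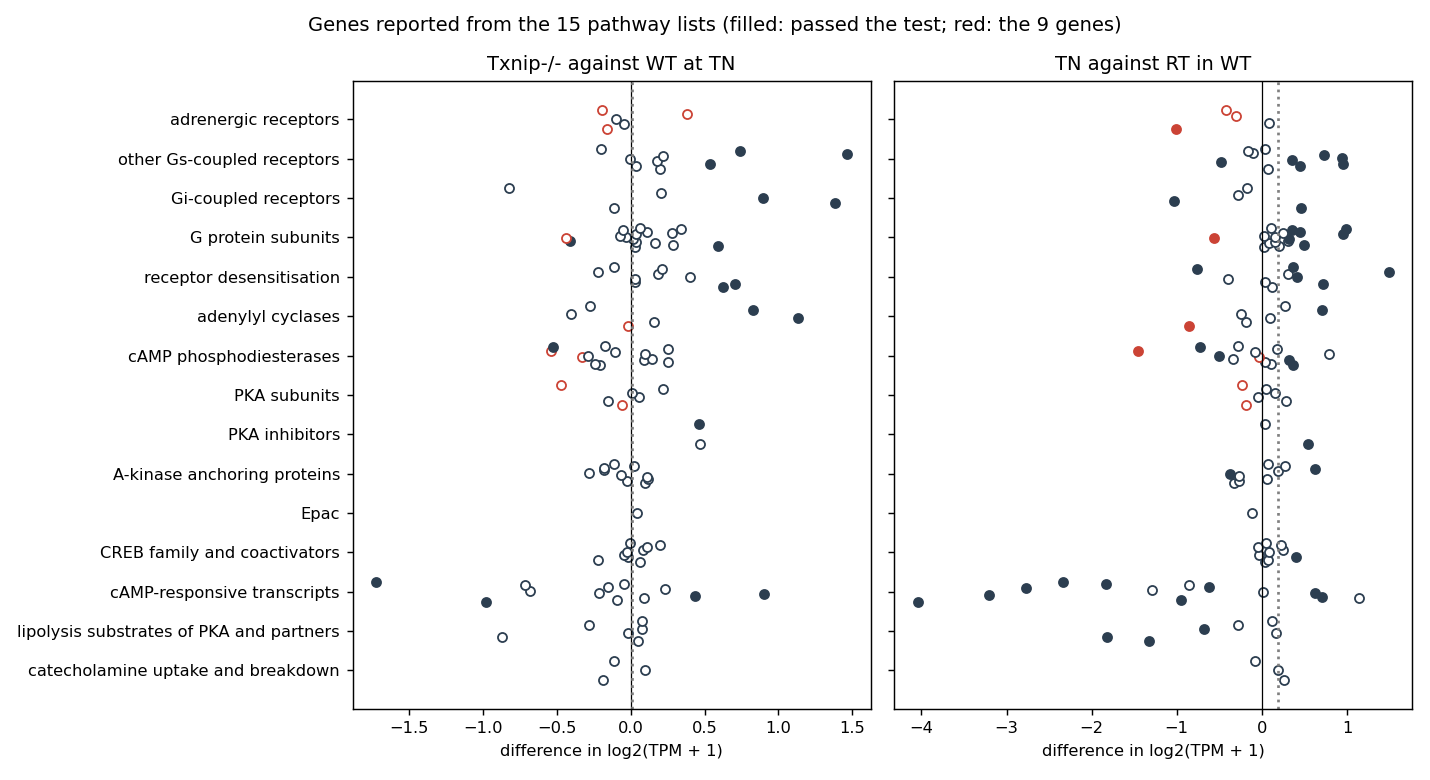
Difference in log2(TPM + 1) (x axis) of the genes reported from the 15 pathway lists (y axis), for Txnip-/- against WT at TN (left) and TN against RT in WT (right); filled points passed the test, red points are the 9 genes, and dotted lines mark the median of all genes. On the left Pth1r and Hcar1 lie farthest to the right and Ucp1 farthest to the left, and on the right Dio2 lies at -4.04.

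For the 5 genes that passed in any comparison, the 3 tested genes with the most alike pattern over the 12 libraries were named by Pearson's r on log2(TPM + 1). The libraries fall apart by temperature, so r mostly describes that step, and r of the deviations from the group means is given second. For Adra1a they were Atp6v0a2 (0.99, 0.90), Slc25a17 (0.99, 0.85) and Pex14 (0.99, 0.94). For Gnas they were Slc36a2 (0.98, 0.87), Acat1 (0.97, 0.88) and Pex3 (0.97, 0.81). For Adcy3 they were Paqr9 (0.99, 0.79), Picalm (0.99, 0.80) and Egln3 (0.99, 0.76).

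For Pde4d they were Dio2 (0.96, 0.63), Slc22a15 (0.96, 0.70) and Arl4a (0.94, 0.84), and for Prkar2b they were Btbd1 (0.96, 0.87), Cluh (0.96, 0.90) and Slc30a9 (0.95, 0.88). Among the 9 genes themselves, Gnas and Prkar2b deviated together within the groups (r of the deviations 0.86, 12 libraries), and Gnas and Adrb3 in opposite directions (-0.77). Without TN WT replicate 1, high in Gnas and Prkar2b and low in Adrb3, these were 0.85 and -0.29 over 11 libraries, so the second rested on that library.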

How the data were processed

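Polyadenylated RNA of 12 BAT samples (3 per group) was sequenced by the authors as single-end reads, aligned to mm10 with STAR 2.7.5a and counted over exons with HOMER 4.11.1, which kept 1 transcript per gene. The authors deposited TPM for all libraries and, for each temperature, log2-scale normalised values whose transform the headers do not name. Those tables also hold the authors' fold changes and p-values, which were not used. For 3 of the 9 genes (Adra1a, Gnas and Adcy3) the tables list different transcripts. GENCODE exons on the opposite strand overlap Adrb3, Gnas and Adcy3, and whether counting used strand is not given in the sources used here.

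TPM were set on the scale log2(TPM + 1), so fold changes of low genes are understated, and a gene was tested where its TPM averaged 1 or more, with limma 3.58.1 in R 4.3.3 (empirical Bayes with trend, Benjamini-Hochberg over all genes tested, thresholds of 0.05 for the adjusted p and of 0.8 or its inverse for the fold). Genotypes were compared within each temperature on 6 libraries. TN against RT and the interaction were fitted on 12. The scripts were tested on simulated data. Values were read and plotted with Python 3.11.15. Depth was 29.93 to 47.44 M reads. TPM keep no counts, so no counting interval was made.

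The 9 genes, the pathway lists and the marker lists were chosen with earlier results of these data known. Named besides the 9 were list genes that passed between genotypes, the largest rise and fall of each list from RT to TN in WT, and the 3 genes most alike to each passing gene. The labels give 1 sample per library, and p-values measure the spread between these samples. Alternatives were another pseudocount (0.1), no filter, upper-quartile scaling, median centring, a replicate block, no fold threshold, other fits, the authors' log-scale values and leaving out libraries; leaving out both RT libraries numbered 1, and values of correlations and of the cAMP-responsive list without libraries that stood apart, were chosen after seeing the data. The columns in use all belong to this series. RefSeq promoter windows were matched by transcription start. Some list genes are not reported here.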

Additional observations from a re-analysis of the deposited data

Results flagged for a closer look

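A pair of genes of the wider pathway lists had groups that separated in opposite directions at the 2 temperatures. Sctr, the secretin receptor gene, was 8.56, 9.51 and 10.4 TPM in RT WT and 8.24, 7.9 and 7.26 TPM in RT Txnip-/- libraries, and 10.2, 7.87 and 7.16 TPM in TN WT and 17.2, 13.6 and 13.2 TPM in TN Txnip-/- libraries. Its interaction was 0.988 on the log2 scale (limma adjusted p = 0.0895). Atf2, a CREB-family factor gene, was 34.3, 38.9 and 35.6 TPM in RT WT and 42, 48.3 and 41.2 TPM in RT Txnip-/- libraries, and 39.6, 37.2 and 38.1 TPM in TN WT and 33.1, 32.6 and 32.5 TPM in TN Txnip-/- libraries. Its interaction was -0.485 (limma adjusted p = 0.115). Neither interaction passed the test over all genes, so a difference between the temperatures was not shown. Groups of 3 were too small for a test of single outlying libraries.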

How the results depend on the processing

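Of 783 values of the 9 genes under alternatives, 735 kept their direction and their side of the threshold, 15 newly passed, 33 changed sign and 0 lost a call; each sign change was in a difference that had not passed. Between genotypes at TN, where 0 of the 9 passed, 1 passed in 1 fit of all 12 libraries (Pde3b) and 0 to 1 when single libraries were left out (1, Prkar2b, without TN WT replicate 2). At RT, 0 pathway list genes passed, and 2 did in 1 fit of all 12 libraries and 0 to 2 when single libraries were left out (2 without RT WT replicate 3 and 2 without RT Txnip-/- replicate 2). At TN, 18 pathway list genes passed, 11 with no filter on low values and 8 to 18 when single libraries were left out: 11 without TN WT replicate 3, 8 without TN Txnip-/- replicate 1 and 9 without TN Txnip-/- replicate 2. The cause of these changes was not tested.

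Whether replicate numbers pair the samples is not given in the sources used here, and correlations of 3 libraries per group could not decide it. The deviations of same-numbered libraries correlated by 0.30, -0.01 and 0.22 at RT and 0.04, 0.02 and -0.03 at TN. Those of differently numbered libraries at RT lay between -0.305 and 0.158, and not every library correlated best with its own number. With the replicate number as a block, 2 of the 9 genes passed between genotypes at TN (Pde4d and Prkar2b), and 4 pathway list genes at RT; the other counts of passing genes stayed within 1.5 times.

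When single libraries were left out, differences near 0 changed sign. Between genotypes at RT they ran from -0.02 to 0.22 for Adra1a, from -0.222 to 0.002 for Prkar2b and from -0.168 to 0.021 for Prkaca. At TN they ran from -0.63 to 0.13 for Adrb3, from -0.066 to 0.013 for Adcy3 and from -0.125 to 0.019 for Prkaca. From RT to TN in WT they ran from -0.53 to 0.10 for Adrb1, from -0.754 to 0.012 for Adrb3 and from -0.128 to 0.031 for Pde3b. For the interaction they ran from -0.43 to 0.34 for Adrb3, from -0.26 to 0.25 for Pde4d and from -0.083 to 0.107 for Prkaca. Without both RT libraries numbered 1, Prkar2b (0.042) and Prkaca (0.044) changed sign between genotypes at RT, Adrb1 (0.10) from RT to TN in WT, and Adrb3 (-0.12) and Pde4d (0.10) in the interaction. With upper-quartile scaling the Prkaca interaction was 0.016. TPM do not show the counts behind low values.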
